A study of Mus musculus with 6 samples.

Results

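The genes described here encode the factors that start and extend protein chains on the cytosolic ribosome. They were taken from the gene table of mouse bone marrow long-lived plasma cells as every symbol beginning with Eif1 to Eif6, Eef1 or Eef2, leaving out the eIF2 kinases (Eif2ak) and the Y-linked Eif2s3y. This gave 58 of 13642 genes, in 10 groups by factor complex. Most are factors in the strict sense, but the prefix also takes in inhibitors (Eif4ebp1, Eif4ebp2 and Eif4ebp3), a kinase (Eef2k), methyltransferases (Eef1akmt1 and Eef2kmt), a transporter of the cap-binding protein (Eif4enif1), an exon junction helicase (Eif4a3) and a scaffold of tRNA synthetases (Eef1e1). Eif1ad, a nuclear relative of Eif1a, was taken in as well.

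The comparison was of 3 plasma cell libraries from young with 3 from old C57BL/6J mice. The young group was female and aged 2 to 3 months, the old group male and aged 17 to 19 months. Young mice came from Jackson or UCLA and old mice from the NIA, so age, sex and source cannot be told apart. No genotype or treatment was given for either group. The cells were sorted from marrow by high CD138 and by the absence of B220, IgD, T cell receptors, CD11b and Gr-1. The design text speaks of 3 independent groups of mice, and whether a library came from 1 animal or a pool was not given in the sources used here, so the p-values rest on a spread between samples that may be technical in part.

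Translation starts when eIF2, carrying the initiator tRNA, joins the small ribosomal subunit together with eIF1, eIF1A, eIF3 and eIF5. The eIF4 factors bring this complex to the capped end of the messenger RNA, from which it scans to a start codon, and eIF5B joins the large subunit. eIF2B recharges eIF2 with GTP and is the step blocked when eIF2 is phosphorylated under endoplasmic reticulum stress, while the 4E-binding proteins hold back the cap-binding factor when mTORC1 is inactive. eEF1 delivers each further aminoacyl-tRNA and eEF2 moves the ribosome along. Plasma cells are known for very high output of antibody, which is made on the endoplasmic reticulum by this machinery.

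Many mRNAs of translation factors begin with a C and a run of pyrimidines, the terminal oligopyrimidine element through which mTORC1 controls them. The windows below run from 20 bases before to 10 bases from the annotated start, as RefSeq gives them on GRCm38.p6, and 44 of the 58 genes had such a window. Shown are the genes of the most abundant pair (Eef1a1 and Eef2), a pair of eIF3 genes whose groups lay apart (Eif3a and Eif3k), and the genes whose annotated start matched. A window without capitals does not show that the mRNA lacks the element. Capitals mark a C at the start followed by 4 letters that are each C or T, searched on the transcribed strand only. The windows are chr9:78481715-78481744 (minus strand) for Eef1a1, chr10:81176611-81176640 (plus) for Eef2, chr19:60790684-60790713 (minus) for Eif3a, chr7:28981879-28981908 (minus) for Eif3k, chrX:94212642-94212671 (minus) for Eif2s3x and chr7:108934395-108934424 (plus) for Eif3f.
Eef1a1: cgtgtgctggctccgccctcttcccgaggg
Eef2: cgacctataaaaggccgggcgttgacgtca
Eif3a: acatccggggctcgggcggcggcgctgccg
Eif3k: aaaaaaaaacaaccggcgctggtgctgaaa
Eif2s3x: ggcggctgccgagcattttcCTTTTctctc
Eif3f: gctcttctgttctaggctctCTCTCtttct

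Only Eif2s3x and Eif3f matched at the RefSeq start, 4.55% of the 44 genes, against 2.98% of 10442 genes of the table with a window. In a search added after the RefSeq result was known, over GENCODE M21 protein-coding transcripts, of which a gene can have several, 9 of 58 had a matching start (15.5%, against 5.80% of 13537 genes). These were Eef1b2, Eef1d, Eif2b4, Eif2s1, Eif2s3x, Eif3f, Eif3m, Eif4a2 and Eif4g2. Their old minus young differences were positive for 5 and negative for 4, with a median of 0.09 on the log2(FPKM + 1) scale, and the groups of all 9 overlapped. The unmatched windows say only that these letters are not at that annotated base.

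Levels are FPKM, sequenced fragments scaled for gene length and library depth. Setting genes side by side depends on the length used, and the annotation behind it is not given in the sources used here. Translation factors were abundant: the median of their mean levels was 31.2 FPKM against 5.99 over all genes, and 52 of 58 lay above the median gene. 13 genes averaged at least 100 FPKM and 9 less than 10. Eef1a1, the GTPase that carries aminoacyl-tRNA, was the highest in each library, followed in each by Eef2, the translocase. Together they made up 43.8% ± 1.75 of the summed FPKM of the 58 genes (SD, n = 3) in young libraries, and 40.2% ± 1.84 in old ones. The groups overlapped, with 41.8% in young replicate 1 and 42.4% in old replicate 2.

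**Figure D1:**
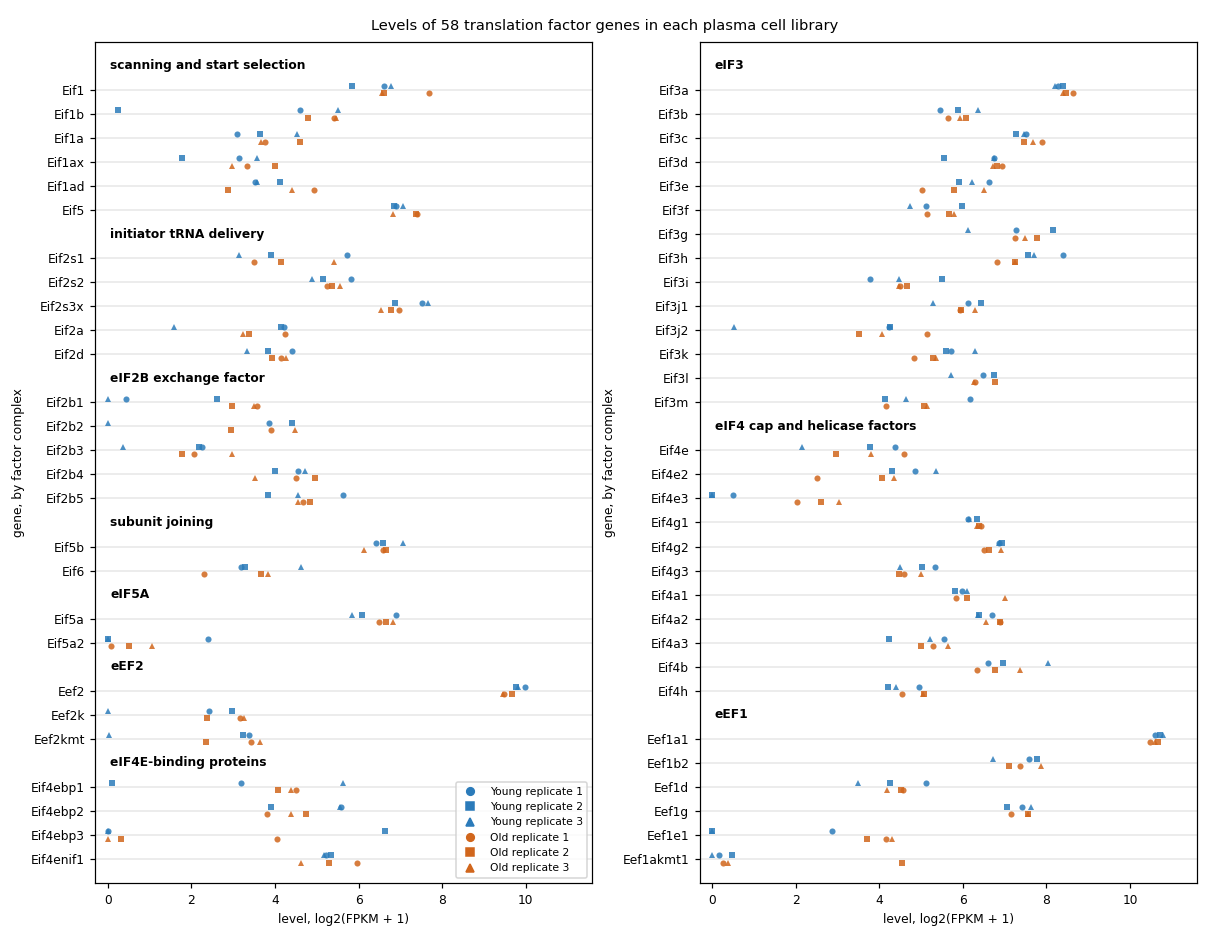
Level of each of the 58 genes on the log2(FPKM + 1) scale (x axis), by factor complex (y axis), 1 point per library, with young libraries in blue and old ones in orange. Abundant genes such as Eef1a1, Eef2 and Eif3a lie close together in all 6 libraries, whereas Eef1e1, Eif2b1, Eif4e3 and Eif4ebp3 run from 0 upwards.

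No single factor gene passed the test between old and young plasma cells. Limma, fitted on log2(FPKM + 1) over the 10687 genes with a mean of at least 1 FPKM, called 0 of 57 tested translation factor genes at a Benjamini-Hochberg adjusted p under 0.05, and 0 genes in all (0%). The smallest limma adjusted p among the factors was 0.736. At an unadjusted p under 0.05 there were 3 genes with higher old values (Eef1e1, Eif4e3 and Eif2b1), beside 4.66% of all genes tested, and 1 with lower old values (Eif3h), beside 1.25%. As shares of the 57 genes these are 5.26% and 1.75%, near the background. Eif4e3 passed the limit of 1 FPKM through its old values alone, so it could only count as higher. With a limit of 5 FPKM, Eef1e1 was the only gene left among the higher ones.

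Groups did not overlap for 7 genes. Old libraries lay above young ones for Eef1e1, Eif2b1, Eif3a and Eif4e3, or 7.02% of the 57 against 8.78% of all genes tested. They lay below for Eef2, Eif3h and Eif3k, or 5.26% against 3.42%. Among genes averaging at least 20 FPKM, 1 of 39 factor genes lay above and 3 below, against 4.66% and 5.47% of 2835 genes. These shares, too, are near the background. Eif4e3, counted above, was tested through its old values alone.

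The median difference, old minus young, was 0.20 over the 57 genes and 0.23 over all genes tested; 39 were positive and 18 negative, or 68.4% positive beside 61.3% of all genes. In genes averaging at least 20 FPKM the median was 0.09 for the 39 factor genes, 23 of them positive, and 0.02 for all. The sign of the set rested on young replicate 3: without it 28 genes were positive and 30 negative, with a median of -0.0085. After quantile normalization the median of all genes was 0.01 in place of 0.23, and 38 of 57 factor genes lay above it, against 28 as deposited.

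Young replicate 3 stood apart by its low values. It listed 8 of the 58 genes at 0, young replicates 1 and 2 listed 1 and 3, and the old libraries listed 0, 0 and 1. Of the 57 tested genes, 4, 5 and 10 were under 0.5 FPKM in young replicates 1 to 3, against 1, 1 and 2 in old replicates 1 to 3. Over all tested genes the shares under that level were 14.5%, 21.6% and 29.0% for young libraries, against 13.0%, 8.44% and 6.90% for old libraries. Estimated from the steps between low values, depth was 24500000, 25400000 and 22500000 reads for young and 27000000, 28200000 and 27500000 for old libraries, so that each old library was deeper than each young one. Eef1a1 rested on about 94900 to 107000 reads in young and 95200 to 114000 in old libraries. For a gene of 1 kb, a single read amounted to 0.0355 to 0.0444 FPKM. The part of depth in the differences of low genes was not tested.

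The sort could be checked against 10 plasma cell markers, all of which were present in every library. Each of the 10 was lowest in old replicate 3, where their sum was 9059 FPKM against 20004 to 23321 in the young and 22784 and 23016 in the other old libraries. Summed levels of 8 neutrophil markers were 352 to 562 FPKM in young and 259 to 1246 in old libraries. For 6 monocyte markers the sums were 86.4 to 349 and 210.02 to 666, highest in old replicate 3. The other lists summed to 114 to 546 FPKM for B cells (mostly Cd79a), 9.73 to 23.5 for T cells, 0.320 to 609 for red cells, 37.01 to 291 for plasmacytoid dendritic cells and 103 to 413 for dividing cells. All 5 dividing cell markers and 3 of 4 red cell markers were highest in old replicate 3. Of the 4 plasmacytoid dendritic markers, 3 were highest in young replicate 3. The T cell receptor gene Cd3e was at 0 in 4 libraries and at 2.73 and 0.934 in old replicates 2 and 3. 1 erythroid marker of the 5 was not analysed here; none of the other markers was at 0 in every library. In old replicate 3 the granule genes Elane, Mpo and Ctsg were the highest of all libraries, at 220.1, 264 and 282 FPKM, while S100a9 and Ngp were the lowest, at 40.2 and 38.4. Lyz2, a myeloid lysozyme, was at 26.7, 97.1 and 99.1 FPKM in young and at 179, 196 and 516 in old libraries, without overlap. It was the only monocyte marker to lie apart, and of the 5 tested 4 had a positive difference and Ly6c2 a negative one. In the other lists, old libraries lay above young ones for Elane, Ctsg, Ms4a1 and Ccnb1 and below for Cd28 and Pax5. The monocyte receptor gene Fcgr1 was at 0 in 5 libraries and at 0.0546 in old replicate 2. Without old replicate 3 the log2 change was -0.86 for Eif3h and -0.29 for Eef2, against -0.79 and -0.32 with it. The part of other cells was not tested, and in bulk samples fewer cells of a type and less RNA per cell cannot be told apart.

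**Figure D2:**
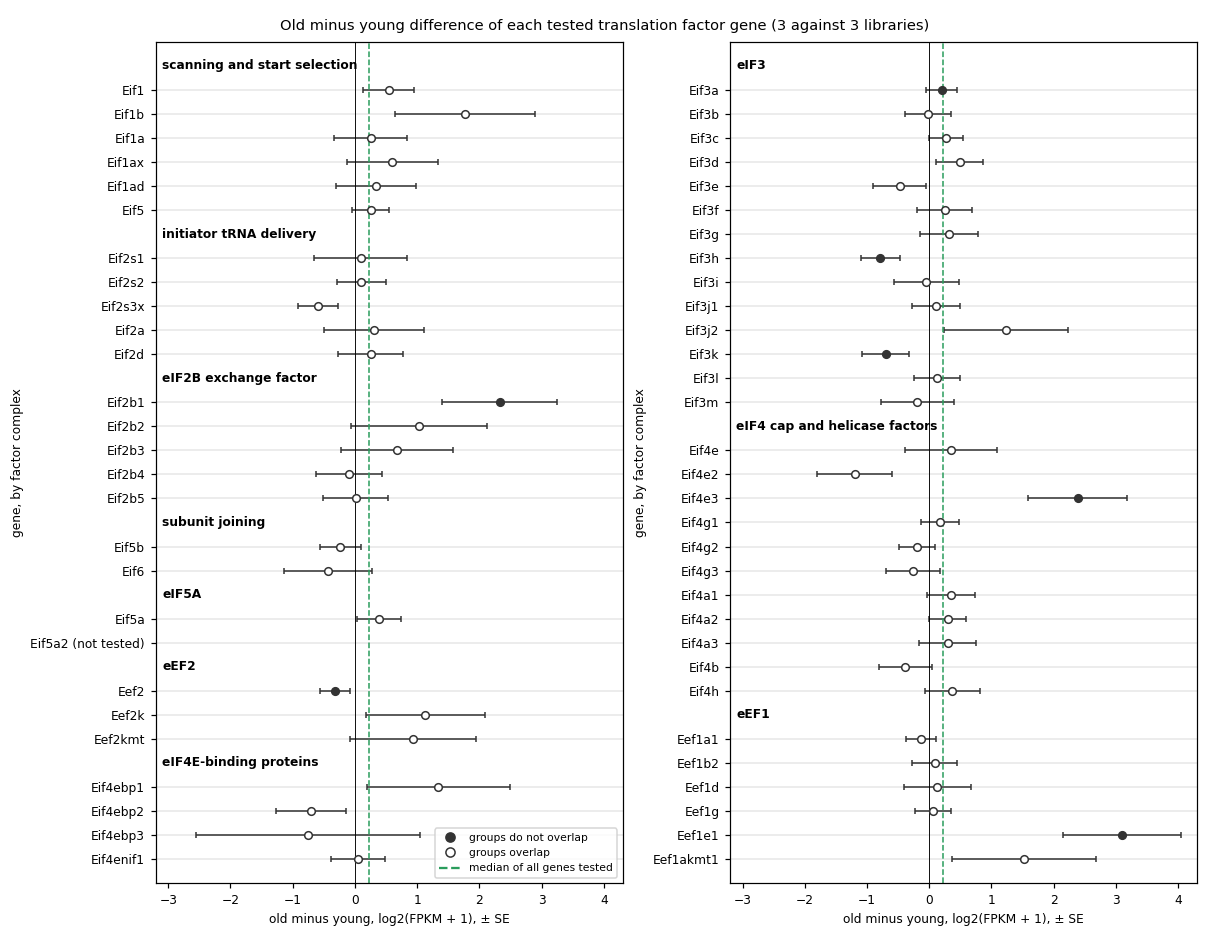
Old minus young difference on the log2(FPKM + 1) scale (x axis) with its limma standard error, for each tested gene by factor complex (y axis). Filled points mark the 7 genes whose 3 old and 3 young values do not overlap, and the dashed line is the median of all genes tested, 0.23; 0 genes were called.

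All 6 genes grouped under scanning and start codon choice had positive differences, beside 61.3% of all genes tested, with none called and the groups of each overlapping. The 6 include Eif1ad, which is there as a relative of Eif1a by name. The sign of all 6 held after median-ratio scaling and quantile normalization. Eif1ad turned negative with array weights or without old replicate 1, and Eif1a without young replicate 1 or old replicate 2. Eif5, which makes eIF2 hydrolyse its GTP, was at 119, 115 and 132 FPKM among the young and at 167, 165 and 112 among the old. Old replicates 1 and 2 were thus above every young library, and old replicate 3 below each of them.

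Eif1, the gatekeeper of start codon choice, was at 96.8, 56.4 and 109 FPKM among the young against 205, 97.1 and 93.9 among the old, so that old replicate 1 alone was above the young range. Its near copy Eif1b was at 23.4, 0.178 and 44.3 against 41.5, 26.7 and 43.2, low in young replicate 2 only. Eif1a and its X-linked counterpart Eif1ax averaged 14.7 and 8.63 FPKM, and Eif1ad, a nuclear relative, 15.7. Close copies, such as Eif1 with Eif1b and Eif1a with Eif1ax, may have had their reads split in counting. Summed over the 6 genes the level was 265 ± 63.8 FPKM (SD, n = 3) in young and 362 ± 92.1 in old libraries, with overlap.

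Among the genes that deliver the initiator tRNA, the gamma subunit of eIF2 had the lower old values. Eif2s3x encodes the GTP-binding gamma subunit and lies on chromosome X (94188707 to 94212862, minus strand, GRCm38). It was at 184, 117 and 203 FPKM among the young and at 124, 109.6 and 92.4 among the old. Only young replicate 2 and old replicate 1 overlapped, and the log2 change was -0.60 ± 0.32 (SE; limma adjusted p = 0.841).

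The groups differ in sex, and Eif2s3x has a Y-linked partner of the same function. That partner, Eif2s3y, was at 14.8, 13.0 and 7.74 FPKM in old libraries and at most 0.0183 in young ones. Summed, the pair reached 184, 117 and 203 FPKM in young and 138, 123 and 100.1 in old libraries, which again overlapped only between young replicate 2 and the old ones. Sex and age cannot be told apart here.

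The alpha and beta subunits showed no such order. Eif2s1, which carries the serine that stress kinases phosphorylate, was at 51.4, 13.9 and 7.83 FPKM in young and at 10.2, 16.5 and 41.6 in old libraries. Eif2s2 was at 55.4, 34.7 and 28.6 against 37.0, 40.5 and 46.0, so that the young libraries lay on either side of the old ones. In each library Eif2s3x was the highest of the 3 subunit genes, at 2.01 to 7.08 times Eif2s2. Eif2a and Eif2d, which can deliver initiator tRNA in other ways, averaged 12.0 and 15.2 FPKM.

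The 5 eIF2B genes had 4 positive differences and 1 negative, and 3 and 2 after median-ratio scaling or quantile normalization. Eif2b1 (ENSMUSG00000029388.14; chromosome 5, 124570213 to 124579131, minus strand) encodes the alpha subunit that lets the factor sense phosphorylated eIF2. It was at 0.354, 5.15 and 0 FPKM among the young and at 10.8, 6.85 and 10.4 among the old. The groups did not overlap, and the log2 change of 2.33 ± 0.93 (SE) had a limma adjusted p = 0.829. The young values stand for about 22.4, 337 and 0 reads, and the unadjusted p was above 0.05 without any 1 of the libraries other than young replicate 2. The change was 3.90 with a pseudocount of 0.1 FPKM and 1.13 with 5.

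Eif2b2, the beta subunit gene, was at 13.4, 20.2 and 0 FPKM in young and at 13.9, 6.73 and 21.4 in old libraries. Its value of 0 in young replicate 3, beside 25.4 FPKM of Eif2b4 and 22.3 of Eif2b5 in the same library, shows that subunits needed together were listed very unequally there. Eif2b3, for the gamma subunit, stood at 3.73, 3.50 and 0.291 against 3.18, 2.45 and 6.84, again lowest in young replicate 3. The catalytic subunit gene Eif2b5 was at 48.2, 13.4 and 22.3 against 24.3, 27.4 and 22.4, and Eif2b4 at 22.5, 14.9 and 25.4 against 21.5, 30.1 and 10.4. The summed level was 64.4 ± 21.1 FPKM (SD, n = 3) in young and 72.9 ± 1.26 in old libraries.

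eIF3, the largest initiation factor, held 3 of the 7 genes whose groups lay apart, with 1 higher and 2 lower in old libraries and none called. It made up 14 of the 57 tested genes, and over all genes tested 8.78% lay above and 3.42% below. Counts this small do not set the complex apart. Its 14 genes summed to 1439 ± 172 FPKM (SD, n = 3) in young and 1420.0 ± 45.6 in old libraries, 24.7% of the summed factor level. 8 had a positive and 6 a negative difference, whereas 4 were positive and 10 negative without young replicate 3. FPKM within the complex was far from equal: over the 12 subunits other than the loosely bound eIF3j, the highest exceeded the lowest by 14.1 to 26.2 times within a library. Merged exon lengths of these genes run from 1612 bases for Eif3h to 8731 for Eif3a. The part of gene length in this inequality was not tested.

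Eif3a, the large scaffold subunit (ENSMUSG00000024991.7; chromosome 19, 60761117 to 60790658, minus strand), had the highest mean of them. It was at 310.2, 334 and 295 FPKM among the young and at 395, 350.5 and 338 among the old. The old values lay above the young ones by a narrow margin, 338 against 334, and after median-ratio scaling or quantile normalization the groups overlapped. The log2 change of 0.20 ± 0.25 (SE; limma adjusted p = 0.892) was below the median of 0.23 of all genes and above the 0.02 of genes averaging at least 20 FPKM, and it was 0.10 after median-ratio scaling. Eif3c, its partner in the core, was at 182, 154 and 174 against 237, 176 and 203, so that only young replicate 1 and old replicate 2 overlapped, and Eif3a stood at 1.86 ± 0.272 times Eif3c in young and 1.77 ± 0.192 times in old libraries (SD, n = 3).

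Eif3h, a subunit of the outer lobe (ENSMUSG00000022312.10; chromosome 15, 51786558 to 51865523, minus strand), was at 334, 188 and 209 FPKM in young libraries. In old ones it was at 112, 149.9 and 151. The groups did not overlap, and the log2 change was -0.79 ± 0.32 (SE; limma adjusted p = 0.839, unadjusted 0.0329). It was -0.54 without young replicate 1, the library with the highest value, and the unadjusted p was above 0.05 without that library or old replicate 1. Relative to Eif3a in the same library, Eif3h stood at 1.08, 0.562 and 0.709 in young and at 0.283, 0.428 and 0.448 in old libraries. That this ratio did not overlap was fixed in advance, because Eif3a lay higher and Eif3h lower in every old library. The pair was chosen after both genes had been seen.

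Eif3k, which sits beside Eif3l at the edge of the complex (ENSMUSG00000053565.10; chromosome 7, 28971372 to 28981864, minus strand), was at 51.5, 47.3 and 76.7 FPKM in young and at 27.5, 38.2 and 40.03 in old libraries. The log2 change was -0.70 ± 0.38 (SE; limma adjusted p = 0.841). Its neighbour Eif3l went with neither group, at 88.3, 107 and 51.2 against 76.7, 108 and 75.4. Nor did Eif3e, another lobe subunit, separate, at 97.3, 59.0 and 73.8 against 31.4, 54.4 and 90.0.

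The other eIF3 genes overlapped. Eif3g, an RNA-binding subunit, ran from 68.1 in young replicate 3 to 285 in young replicate 2, with old libraries between 150.2 and 218. Eif3d, which can itself bind caps, was at 106, 45.7 and 106 against 122, 112 and 105, low only in young replicate 2; an antisense gene model, Gm17638, shares 43.3% of its exon bases, and use of strand in counting was not given in the sources used here. Mean levels were 59.6 FPKM for Eif3b, 43.1 for Eif3f, 32.5 for Eif3m and 24.2 for Eif3i. Eif3j1 averaged 64.9 FPKM, and its near copy Eif3j2 was at 17.6, 18.0 and 0.438 in young and at 34.3, 10.4 and 15.6 in old libraries, values that the sharing of reads between the copies leaves uncertain.

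**Figure D3:**
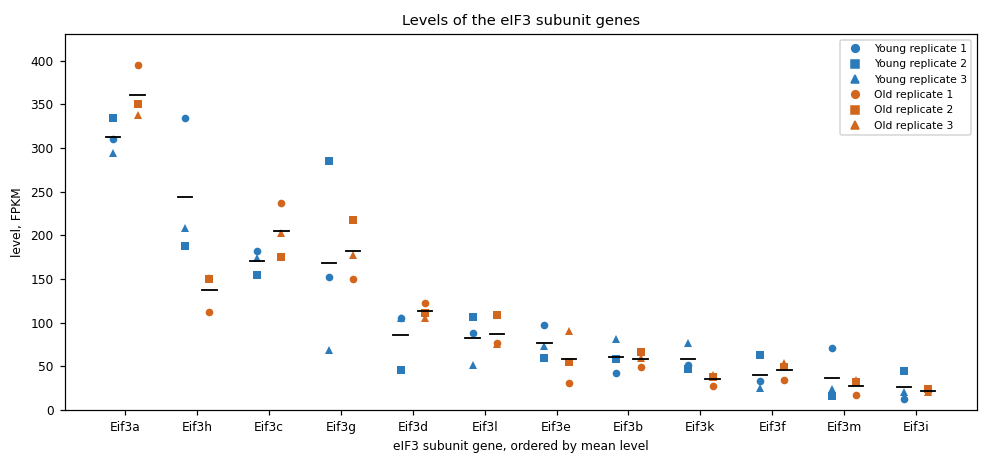
Level in FPKM (y axis, from 0) of the 12 eIF3 subunit genes other than Eif3j1 and Eif3j2, ordered by mean level (x axis), 1 point per library, with black bars at the group means. Eif3h runs from 188 to 334 in young and from 112 to 151 in old libraries, and Eif3a from 295 to 334 and from 338 to 395.

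Cap-binding genes showed a rare paralogue listed almost wholly in old libraries, while the main factors overlapped. Eif4e3 (ENSMUSG00000093661.1; chromosome 6, 99625135 to 99666771, minus strand), an atypical relative of the cap-binding protein, was at 0.416, 0 and 0 FPKM in young and at 3.06, 5.08 and 7.15 in old libraries. These values stand for about 25.6, 0 and 0 reads against 208, 360 and 494. The log2 change was 2.38 ± 0.80 (SE; limma adjusted p = 0.736). The change is on a scale set by the pseudocount, and was 4.83 with 0.1 FPKM and 0.96 with 5. The gene passed the limit of 1 FPKM through its old values alone, and an overlapping gene model on the same strand, Gm20696, shares 14.8% of its exon bases.

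Eif4e itself, the cap-binding protein, was at 19.7, 12.7 and 3.44 FPKM in young and at 23.0, 6.80 and 12.9 in old libraries, with full overlap. Eif4e2, a competitor that represses capped messages, was at 27.9, 18.7 and 40.1 against 4.69, 15.8 and 19.3. Only young replicate 2 and old replicate 3 overlapped there, and the log2 change was -1.20 ± 0.61 (SE; limma adjusted p = 0.839). Without old replicate 1 it was -0.63 and without old replicate 3 it was -1.55. After median-ratio scaling or quantile normalization the Eif4e2 groups did not overlap.

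Of the scaffolds that hold the cap complex together, none separated the groups. Eif4g1, the main scaffold, was at 68.2, 80.4 and 69.6 FPKM in young and at 84.7, 82.3 and 79.4 in old libraries, with young replicate 2 inside the old range. Quantile normalization set its groups apart. Eif4g2, which serves cap-independent starts, was at 114, 121 and 116 against 90.4, 98.3 and 119, so that old replicate 3 alone reached the young range; median-ratio scaling set these groups apart. Eif4g3 was at 39.0, 31.4 and 21.6 against 23.2, 21.3 and 30.7. The Eif4g1 level was 2.51 ± 0.739 times that of Eif4g3 in young and 3.37 ± 0.685 times in old libraries (SD, n = 3).

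Of the helicases that unwind the leader, Eif4a2 exceeded Eif4a1 in 5 of 6 libraries. Eif4a2 was at 102, 82.6 and 80.9 FPKM in young and at 117, 117 and 93.04 in old libraries, and overlapped only through young replicate 1 and old replicate 3. Eif4a1 was at 61.8, 55.2 and 67.1 against 56.4, 66.9 and 127. Its value of 127 in old replicate 3 put the ratio of Eif4a2 to Eif4a1 at 0.730 there, against 1.21 to 2.08 elsewhere.

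Among the helicase cofactors, Eif4b was the more abundant, at 96.4, 124 and 262 FPKM in young and at 80.1, 107 and 164 in old libraries. Replicate 3 of each group was highest. Eif4h averaged 25.7 FPKM, and the exon junction helicase Eif4a3, which is no such cofactor, 36.3, both with overlap. Over the 11 cap and helicase genes the sum was 628 ± 79.8 FPKM (SD, n = 3) in young and 620.2 ± 101 in old libraries.

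The 4E-binding proteins, the brakes on Eif4e, spread widely within both groups. Eif4ebp1, which is also induced in the stress response through Atf4, was at 8.17, 0.0748 and 48.2 FPKM in young and at 21.6, 15.7 and 19.9 in old libraries. The old values lay close together and the young ones spread on both sides of them. Eif4ebp2 was at 46.7, 14.0 and 46.4 against 13.0, 25.7 and 19.8, with only young replicate 2 inside the old range.

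Eif4ebp3 was at 0, 98.9 and 0 FPKM in young and at 15.6, 0.244 and 0 in old libraries, so that young replicate 2 alone held nearly all of the young level. It is uncertain as a gene of its own, because a longer gene model on the same strand, AC115631.1, covers 67.3% of its exon bases. Eif4ebp1 and Eif4ebp2 together stood at 2.78, 1.11 and 27.5 times Eif4e in young and at 1.50, 6.09 and 3.09 times in old libraries. The ratio was largest in young replicate 3, where Eif4e was lowest. Eif4enif1, which carries Eif4e to sites of RNA decay, was at 36.1, 39.9 and 35.1 FPKM against 61.5, 38.2 and 23.5, close together in young libraries and spread around them in old ones.

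Subunit joining genes overlapped between groups. Eif5b, the GTPase that joins the large subunit, was at 84.5, 95.5 and 132 FPKM in young and at 94.7, 99.8 and 69.2 in old libraries. Eif6, which keeps the subunits apart until the large one matures, was at 8.13, 8.68 and 23.8 against 3.92, 11.7 and 13.2. In both genes the highest library was young replicate 3.

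eIF5A, the factor that helps ribosomes through difficult stretches such as proline runs, came almost entirely from Eif5a. It was at 118, 66.6 and 56.3 FPKM in young and at 88.6, 100.7 and 112 in old libraries, with the young range enclosing the old one. Eif5a2 was at 4.22, 0 and 0 against 0.0450, 0.423 and 1.07. With a mean of 0.959 FPKM it was the single gene below the limit for testing, and at most 3.56% of the Eif5a level in any library.

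Of the elongation factors, the translocase had lower values in each old library than in any young one. Eef2 (ENSMUSG00000034994.9; chromosome 10, 81176631 to 81182498, plus strand) was at 1014, 877 and 897 FPKM in young and at 709.9, 815 and 703 in old libraries. That is 929 ± 73.9 against 743 ± 62.5 (SD, n = 3), a log2 change of -0.32 ± 0.24 (SE; limma adjusted p = 0.854). The groups did not overlap as deposited or after median-ratio scaling, and overlapped after quantile normalization, where the log2 change was -0.17. Each value rests on roughly 63600 to 82500 reads, so counting error is small beside the spread between libraries.

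Eef2 is switched off by the kinase Eef2k, whose gene was at 4.31, 6.88 and 0 FPKM in young and at 7.88, 4.15 and 8.58 in old libraries. The methyltransferase gene Eef2kmt was at 9.37, 8.37 and 0.0233 against 9.83, 4.06 and 11.5. Both were lowest in young replicate 3, and both overlapped between groups.

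Eef1a1 was at 1556, 1697 and 1774 FPKM in young and at 1417, 1619 and 1547 in old libraries, or 1676 ± 110.4 against 1528 ± 102 (SD, n = 3), with overlap. It stood at 1.82 ± 0.244 times Eef2 in young and 2.06 ± 0.120 times in old libraries. Its exchange factor subunits overlapped too. Eef1g stood at 169, 132 and 197 against 141, 187 and 189, and Eef1b2 at 191, 216 and 105 against 164, 137 and 232, while the third, Eef1d, was lower, at 33.7, 18.1 and 10.3 against 22.5, 22.0 and 17.1.

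Eef1e1, also called AIMP3, tethers methionyl-tRNA synthetase and is no elongation factor despite its name (ENSMUSG00000001707.7; chromosome 13, 38644207 to 38659058, minus strand). It was at 6.27, 0 and 0 FPKM in young and at 16.8, 11.9 and 18.7 in old libraries. It had the smallest p of the 58 genes, with a log2 change of 3.09 ± 0.95 (SE; limma adjusted p = 0.736, unadjusted 0.00854). The change was 5.29 with a pseudocount of 0.1 FPKM and 1.65 with 5. Young replicate 1 held about 500 reads of it and the other young libraries 0. Eef1akmt1, which methylates eEF1A, was at 22.1 FPKM in old replicate 2 and at most 0.373 elsewhere.

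Of the 10 complexes, eEF2 alone had sums that did not overlap, following its main gene. The eEF2 genes together reached 939 ± 76.8 FPKM among the young and 758 ± 56.2 among the old, and the eEF1 genes 2036 ± 69.4 against 1922 ± 138 (SD, n = 3). All 58 genes summed to 6146, 5800.0 and 5912 FPKM in young and 5443, 5745 and 5727 in old libraries, so that each old sum was below each young one, by a narrow margin. The means were 5953 ± 177 and 5638 ± 169.5 (SD, n = 3). Eef1a1 and Eef2, both with lower old means, made up 43.8% of the sum in young and 40.2% in old libraries, with overlap. Of the 57 genes tested, 39 had a positive and 18 a negative difference, so the lower sum does not hold gene by gene. As a share of the summed FPKM of each library the sum was 2.05%, 1.88% and 1.90% in young and 1.81%, 1.79% and 1.88% in old libraries, where young replicate 2 and old replicate 3 overlapped.

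**Figure D4:**
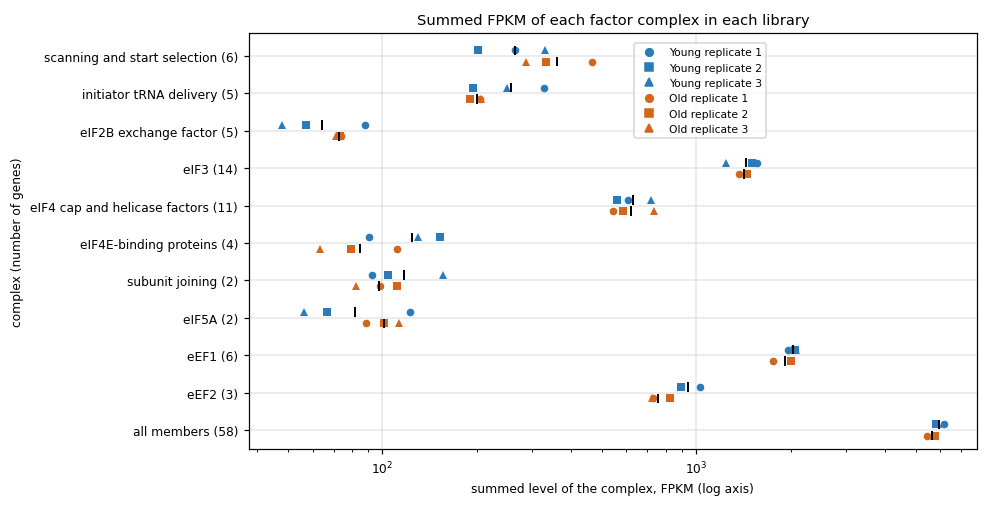
Summed FPKM of each factor complex and of all 58 genes in each library (x axis, log scale), 1 point per library with black bars at the group means. The eEF2 sums are 892 or more in young and 823 or less in old libraries, the sums of all 58 genes lie apart too, at 5800.0 or more against 5745 or less, and the sums of the other 9 complexes overlap.

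Genes that act on these factors were counted from lists, with 0 called by limma in each, beside a median of 0.23 and 61.3% positive over all genes tested. Of 10 eIF2 kinases, phosphatase subunits and Atf4, 6 had a positive and 4 a negative difference, with a median of 0.13 that was -0.01 without young replicate 1, and 0 at an unadjusted limma p under 0.05. Eif2ak3, the kinase PERK of the endoplasmic reticulum, was the most abundant of the kinases, at 58.5, 52.4 and 28.6 FPKM in young and at 60.4, 59.3 and 33.9 in old libraries. The double-stranded RNA kinase gene Eif2ak2 was at 28.5, 19.8 and 13.6 against 28.2, 23.5 and 31.9. Eif2ak1, the kinase named for haem, averaged 20.7 ± 13.7 and 18.3 ± 2.72, and Eif2ak4, the kinase for amino acid lack, 9.85 ± 7.07 and 8.79 ± 4.77 (SD, n = 3). Atf4, the transcription factor translated when eIF2 is phosphorylated, was at 269, 361 and 402 FPKM against 470.1, 352 and 355, highest in old replicate 1. Ppp1cc, a phosphatase catalytic subunit, was at 60.4, 37.4 and 9.11 against 44.9, 54.2 and 71.1.

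Of 14 tested mTORC1 and cap control genes 9 were positive, with a median of 0.07; after median-ratio scaling 7 were positive and the median was -0.03. Mlst8, an mTOR partner, was at 0.847, 0 and 2.08 FPKM in young and at 2.90, 5.20 and 12.3 in old libraries, without overlap (log2 change 1.94 ± 0.90 SE; limma adjusted p = 0.839). Its young mean was under the limit of 1 FPKM, which it passed through its old values, and the change was 3.30 with a pseudocount of 0.1 FPKM and 0.92 with 5. Cyfip1, which binds Eif4e, was at 1.68, 5.39 and 0.147 against 8.83, 3.24 and 8.56. Of 14 other initiation factor genes 9 were positive, with a median of 0.15 that ran from -0.09 to 0.39 without single libraries, turning negative without young replicate 2, young replicate 3 or old replicate 3. Mcts2, a close copy of the reinitiation factor gene Mcts1 whose reads may be split between them, was at 121, 73.03 and 76.3 against 37.7, 56.9 and 66.6, without overlap, and Paip2, which holds back the poly(A)-binding protein, at 71.6, 46.2 and 68.9 against 31.3, 39.3 and 51.3.

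Of 6 termination and rescue genes 2 were positive, with a median of -0.33 that ran from -0.62 to 0.05 without single libraries, turning positive without young replicate 1. Hbs1l, which rescues stalled ribosomes, was at 60.9, 63.2 and 92.4 FPKM in young and at 39.5, 46.3 and 22.2 in old libraries, without overlap (log2 change -1.02 ± 0.40 SE; limma adjusted p = 0.829, unadjusted 0.0297). Gspt2, a release factor paralogue, was at 0, 2.45 and 5.78 against 0, 0 and 0.0382. Of 9 genes that make the hypusine of eIF5A or the diphthamide of eEF2, 7 were positive, with a median of 1.04 that was 0.49 after quantile normalization and 0.53 without young replicate 3. All 9 were low, with group means of 1.23 to 17.8 FPKM, so the median depends on the pseudocount. It was 1.28 with a pseudocount of 0.1 FPKM and 0.44 with 5, beside 0.36 and 0.11 over all genes tested. Dohh, the last enzyme of hypusine synthesis, was at 6.83, 1.63 and 0.0270 against 8.35, 5.73 and 15.4, and Dph3 at 9.44, 3.64 and 9.24 against 13.6, 27.2 and 12.6, without overlap.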

How the data were processed

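The authors deposited FPKM per gene and library; per the submitters' processing notes, bcl2fastq 2.17, STAR and DESeq2 were used without stated roles, with builds GRCm38 and mm10. Counter, annotation release and use of strand are not given in the sources used here. Per the labels' protocols, libraries came from 5 ng of RNA by a stranded template-switching kit. No 2 libraries shared a nonzero value among the 58 genes.

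Limma 3.58.1 (R 4.3.3) was run on log2(FPKM + 1), two-sided, with the prior variance following mean level, over genes averaging at least 1 FPKM. On simulated data with 200 changed genes and the same spread for every gene, it recovered 42% at a log2 change of 1 and 90% at 2. The limma SE of the factor genes ran from 0.24 to 1.80, so the simulation does not give the power for each of them. The spread it used was smaller than that of most factor genes, so its recovery is too high for most of them. A gene not called may still differ. Tables were made with Python 3.11.15, numpy 2.4.6 and pandas 2.3.3. Coordinates, exon lengths and overlaps came from GENCODE M21, which 99.9% of identifiers matched without version. Read numbers are approximate, from steps of low values and merged exons, and cover counting error only. Genes named with every library's value included those not overlapping, of smallest p or highest mean in their complex, paralogue partners, or at 0 in a library. Others given in this way, among them Eif3c, Eif3e and Eif2b3, met none of these rules. Eef1a2 and protein sequences were not analysed here. The genes and lists were chosen with earlier results of these data known. Alternatives covered pseudocount, filter, scaling, weights, a replicate term and each library left out.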

Additional observations from a re-analysis of the deposited data

How the results depend on the processing

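Limma called 0 of the 54 to 58 factor genes tested under each of the 14 alternatives. Over all genes it called 1 after quantile normalization, 1 with array weights and 0 to 7 without single libraries, 7 without young replicate 3. Among the factor genes, the number with an unadjusted p under 0.05 and higher old values was 1 when the filter was 5 FPKM and 2 to 4 without single libraries; with lower old values it was 2 with no filter and 0 to 3 without single libraries. Old libraries lay above young ones for 5 to 11 genes and below for 4 to 6 without single libraries, where fewer values must be apart, beside 12.6% to 20.3% and 5.38% to 8.44% of all genes tested; they lay below for 5 after median-ratio scaling, beside 4.33%. The median difference was lowest at -0.0085, leaving out young replicate 3, and highest at 0.31, leaving out young replicate 1. In log2 of old over young summed FPKM, eEF1 was -0.083 as deposited and -0.19 after median-ratio scaling, and all 58 genes -0.078 and -0.18; the cause was not tested. Without single libraries the other sums kept their sign except eIF3, from -0.11 to 0.047, and the cap and helicase factors, from -0.16 to 0.088. None of the 11 genes given with a log2 change turned sign under the alternatives that tested it. Those of Mlst8 and Hbs1l were added after seeing the data. For genes whose groups did not overlap as deposited, only median-ratio scaling or quantile normalization could have turned the sign. The other alternatives were no test of it. Same-numbered young and old libraries did not deviate together (correlations of -0.034, 0.020 and -0.0041 over genes, and young replicate 1 correlated best with old replicate 3), so the numbers do not pair them; with the replicate block limma called 0 genes, with 3 higher and 1 lower factor gene at an unadjusted p under 0.05, a median of 0.20, and 4 and 3 genes not overlapping.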
